A study of Homo sapiens with 6 samples.

Results

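The genes described here encode 10 secreted matricellular and fibrillar glycoproteins of the extracellular matrix: FN1, TNC, THBS1, THBS2, SPARC, FBN1, FBN2, VCAN, POSTN and LUM. They were taken by symbol from a table of 21631 genes, which held all 10, and 9 of them had enough reads to be tested. FBN2 did not. The cells were A-375, a long-established melanoma cell line, with 3 RNA-seq libraries titled for a guide against SEPHS2, which the study calls knockout cells, and 3 titled for a control guide. SEPHS2 makes selenophosphate, the selenium donor for selenocysteine. The labels give no drug, dose or time, and do not say whether the knockout cells are 1 clone, several or a pool, so a difference in founding cells and an effect of SEPHS2 loss cannot be told apart. Nothing in them says that replicates were grown apart, so the p-values speak only of library-to-library spread, which may be technical.

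Fibronectin (FN1) is laid down as fibrils that cells grip through integrins. Fibrillins (FBN1, FBN2) build the microfibrils that carry elastin and hold latent TGF-beta in store. Versican (VCAN) and lumican (LUM) are proteoglycans: versican binds hyaluronan and lumican binds collagen. Tenascin C (TNC), the thrombospondins (THBS1, THBS2), SPARC and periostin (POSTN) are matricellular proteins, which tune how cells hold to the matrix more than they bear load. In melanoma, many of these proteins are known as products of both the tumour cells and the surrounding stroma.

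Depth was 34606145 to 43405579 counted reads in the libraries labelled knockout and 39796984 to 41757643 in the control libraries. SEPHS2 itself was not lower in the libraries labelled knockout, with 173 ± 3.85 CPM, against 156 ± 3.32 CPM in control libraries (SD, n = 3 each; log2 fold change 0.15, edgeR adjusted p = 0.00401). A gene-level count does not show whether a reading frame was broken, so each direction below rests on the labels. CPM means counts scaled to library size with TMM factors. Log2 fold changes set libraries labelled knockout over control libraries. The threshold for a call was 0.05 for the edgeR quasi-likelihood p, adjusted by Benjamini-Hochberg across all 16910 tested genes. Of 11 melanocytic markers, SOX10 was high (569 CPM in the libraries labelled knockout and 619 CPM in control libraries), and PMEL and MLANA were near 1 CPM. TYR had 6, 0 and 4 reads in the libraries labelled knockout and no read in any control library. The summed level of the 11 markers was 645 to 673 CPM in the libraries labelled knockout and 746 to 772 CPM in control libraries. Of the 8 tested, 3 fell (SOX10, MITF and EDNRB). EDNRB had 29.45 CPM in the libraries labelled knockout and 78.31 CPM in control libraries (log2 fold change -1.41, edgeR adjusted p = 5.53e-15). Once a trend with exon length and GC content was removed from each library, SOX10 did not pass and turned in sign (log2 fold change 0.027, edgeR adjusted p = 0.579). That step also centres each library on its mean, and the median log2 fold change of all genes was then 0.08, so SOX10 still lay below the median gene. With that trend removed, MITF (-0.29) and EDNRB (-1.41) kept their calls. The part of these markers in the results was not tested.

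Among the 9 tested genes, 6 fell in the libraries labelled knockout (FN1, POSTN, VCAN, TNC, THBS2 and FBN1), 2 rose (LUM and THBS1), and SPARC did not pass the test. For reference, 45.4% of all tested genes were called, 23.4% lower and 22% higher. The genes described here were chosen with earlier results of these data known, so this comparison is descriptive only. Lower genes made up 51.5% of all calls, and 33.5% after a trend with exon length and GC content was removed from each library, a step that left 5 of the 9 lower (all but FBN1) and 2 higher. The median log2 fold change of the 9 was -1.03, against 0.01 over all tested genes. Levels did not overlap between the groups for any of the 9, a state found for 52.1% of tested genes. In bulk RNA, fewer cells that express a gene and less of its RNA per cell cannot be told apart.

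**Figure D1:**
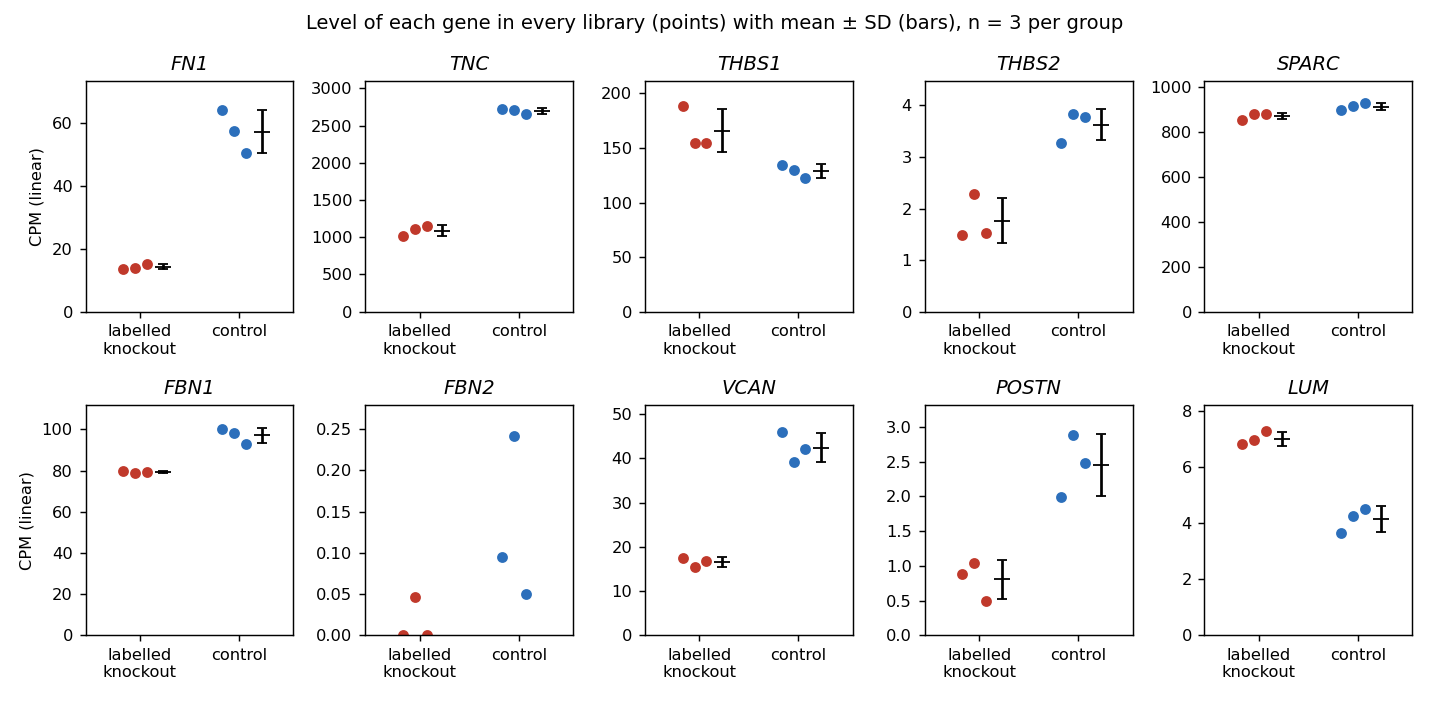
CPM on a linear axis from 0 for each gene in every library, with the mean and SD beside the points (no SD is drawn for FBN2, which had 0 reads in 2 libraries). FN1, TNC, VCAN, THBS2 and POSTN sit lower in the libraries labelled knockout, LUM and THBS1 higher, and the SPARC points lie close together.

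Promoter windows of 300 bases, 250 before and 50 after a start site, were read from RefSeq on GRCh38.p14, which matched 9 of the 10 genes. The start was the outermost one of the gene for 8 of them, and for FBN1 a site 739 bases further in. They are shown for FN1 and TNC, the fallen genes of lowest adjusted p, and for the pair THBS1 and THBS2, which moved apart. Capitals mark matches to 4 motifs on either strand: AP-1 (TGANTCA), TEAD (GGAATG), the cyclic AMP response element (TGACGTCA) and the TATA box (TATAAA). FN1 is at chr2:215436019-215436318, minus strand. TNC is at chr9:115118108-115118407, minus strand. THBS1 is at chr15:39580829-39581128, plus strand. THBS2 is at chr6:169253797-169254096, minus strand.
FN1: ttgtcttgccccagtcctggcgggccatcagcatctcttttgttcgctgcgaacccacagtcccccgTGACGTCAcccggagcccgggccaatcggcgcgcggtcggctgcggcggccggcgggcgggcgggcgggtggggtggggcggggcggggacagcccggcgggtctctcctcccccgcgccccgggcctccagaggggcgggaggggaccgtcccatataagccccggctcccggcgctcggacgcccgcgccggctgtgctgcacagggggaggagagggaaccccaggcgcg
TNC: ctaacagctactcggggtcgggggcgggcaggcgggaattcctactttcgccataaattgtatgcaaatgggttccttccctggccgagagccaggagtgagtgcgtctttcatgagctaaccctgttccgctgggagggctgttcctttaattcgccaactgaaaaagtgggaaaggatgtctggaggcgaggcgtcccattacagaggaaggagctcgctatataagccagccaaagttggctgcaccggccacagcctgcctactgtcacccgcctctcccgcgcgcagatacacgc
THBS1: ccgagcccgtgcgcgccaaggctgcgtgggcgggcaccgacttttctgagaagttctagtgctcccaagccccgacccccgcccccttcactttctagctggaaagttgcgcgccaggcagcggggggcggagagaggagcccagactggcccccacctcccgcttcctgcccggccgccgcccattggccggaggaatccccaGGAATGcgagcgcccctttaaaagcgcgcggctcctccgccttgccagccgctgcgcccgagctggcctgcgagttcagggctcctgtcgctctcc
THBS2: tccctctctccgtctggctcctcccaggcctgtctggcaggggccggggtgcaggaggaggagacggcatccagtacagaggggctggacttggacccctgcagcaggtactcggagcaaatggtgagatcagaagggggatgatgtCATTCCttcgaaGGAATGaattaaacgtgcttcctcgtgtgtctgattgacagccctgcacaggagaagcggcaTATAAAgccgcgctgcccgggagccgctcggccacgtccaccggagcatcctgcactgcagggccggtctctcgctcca

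The FN1 window holds a full cyclic AMP response element that begins 183 bases before the start, a motif found in 1.85% of 35116 RefSeq promoter windows of this length. The TNC, FBN2 and VCAN windows hold none of the 4 motifs in these letters. The TEAD motif stands in 4 of the 9 windows (THBS1, THBS2, SPARC and FBN1), or in 3 of the 8 at an outermost start, against 14% of all windows. THBS2 has it 2 times, on opposite strands, 103 and 91 bases before the start, and THBS1 has it 46 bases before the start. These 4 genes include 1 that rose, 2 that fell and 1 that did not pass. The AP-1 motif, in 7.71% of all windows, was matched in POSTN alone, and the TATA box, in 11.5% of all windows, in THBS2 and POSTN. A match describes letters and shows no binding.

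FN1, the adhesive glycoprotein, had the largest fall of the 9. It had 467, 598 and 616 reads in the libraries labelled knockout, against 2694, 2367 and 2005 in control libraries. Each control library held more than 3 times the reads of any library labelled knockout. Its level was 14.3 ± 0.826 CPM in the libraries labelled knockout and 57.2 ± 6.85 CPM in control libraries (SD, n = 3 each), 4.01-fold lower (log2 fold change -2.00, SE 0.08, edgeR adjusted p = 1.19e-14). That placed FN1 at position 469 of 16910 when genes were ordered from the lowest log2 fold change. The coefficient of variation was 5.79% in the libraries labelled knockout and 12% in control libraries, above the 4.22% and 2.06% that read counting alone would give. FN1 lies on chromosome 2 (215360865 to 215436068, GRCh38.p14, protein-coding) and overlaps ATIC, an enzyme gene of purine synthesis. ATIC had 5580 to 6993 reads in the libraries labelled knockout and 5402 to 5628 in control libraries. How the authors' counting split reads in the shared stretch is not given in the sources used here.

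TNC, a matricellular protein of developing and wounded tissue, had the most reads of the 10 in both groups. It had 34539, 47755 and 46528 reads in the libraries labelled knockout, against 114585, 111984 and 106034 in control libraries. The level was 1089 ± 70.2 CPM in the libraries labelled knockout, so that even its highest value there, 1148 CPM, lay below 2656 CPM, the lowest control value. It was 2.47-fold lower (log2 fold change -1.31, SE 0.05, edgeR adjusted p = 5.10e-15). Scaled to exon length, TNC ranked 271 among 16113 tested genes with a known length in the libraries labelled knockout, and 58 in control libraries. The 10 genes together took 0.215% to 0.232% of all counted reads in the libraries labelled knockout and 0.392% to 0.401% in control libraries. TNC made up 46.5% to 49.9% of those reads in the libraries labelled knockout and 68% to 68.5% in control libraries. TNC lies on chromosome 9 (115019575 to 115118157, GRCh38.p14).

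The 2 thrombospondins, paralogs that bind CD47, CD36 and integrins and are known as inhibitors of blood vessel growth, moved in opposite directions. THBS1, which also activates latent TGF-beta, had 6445, 6674 and 6251 reads in the libraries labelled knockout, against 5683, 5361 and 4884 in control libraries. Its level was 166 ± 19.7 CPM in the libraries labelled knockout and 129 ± 6.29 CPM in control libraries (SD, n = 3 each), 1.29-fold higher (log2 fold change 0.36, SE 0.06, edgeR adjusted p = 5.21e-05). Replicate 1 of the libraries labelled knockout, at 189 CPM, stood above replicates 2 and 3 at 155 and 154 CPM, and without it the log2 fold change was 0.26. THBS2 had far fewer reads, with 51, 98 and 62 reads in the libraries labelled knockout, against 138, 158 and 151 in control libraries. It was 2.04-fold lower (log2 fold change -1.03, SE 0.18, edgeR adjusted p = 7.31e-05). THBS1 reads per THBS2 read, a ratio within each library that needs no scaling between libraries, were 126, 68.1 and 101 in the libraries labelled knockout, against 41.2, 33.9 and 32.3 in control libraries. The ratio was higher in every library labelled knockout than in any control library. THBS1 lies on chromosome 15 (39581079 to 39599466) and THBS2 on chromosome 6 (169215785 to 169253846, both GRCh38.p14). THBS1 overlaps FSIP1, which had only 66 to 128 reads in the libraries labelled knockout and 89 to 113 in control libraries.

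SPARC, a collagen-binding matricellular protein, was nearly level between the groups. It had 29196, 37876 and 35605 reads in the libraries labelled knockout, against 37786, 37738 and 37097 in control libraries, where depths differ. Scaled for depth, it stood at 855, 879 and 879 CPM in the libraries labelled knockout and at 897, 914 and 929 CPM in control libraries. All 3 values were thus slightly lower in the libraries labelled knockout, but the gene did not pass the test (log2 fold change -0.07, 95% interval -0.15 to 0.01, edgeR adjusted p = 0.169). The interval leaves room for a fall to 0.901 of the control level at most. Over the 14 alternative settings its adjusted p was 0.0603 to 0.533. SPARC lies on chromosome 5 (151661096 to 151686915, GRCh38.p14) and overlaps CLMAT3, a non-coding gene with 40 to 60 reads in the libraries labelled knockout and 29 to 45 in control libraries.

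POSTN, a matricellular partner of tenascin C and fibronectin, was among the scarcest. It had 30, 45 and 20 reads in the libraries labelled knockout, against 84, 119 and 99 in control libraries, and the groups did not overlap. It was 3.03-fold lower (log2 fold change -1.60, SE 0.25, edgeR adjusted p = 1.86e-05). With so few reads, its coefficient of variation was 35.1% in the libraries labelled knockout and 18.1% in control libraries, where counting alone would give 17.8% and 9.97%. POSTN lies on chromosome 13 (37562585 to 37598768, GRCh38.p14), whose 319 tested genes had a median log2 fold change of -0.40. The chromosomes of the other 9 genes had medians between -0.01 and 0.04. The part of the chromosome in the fall of POSTN was not tested.

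Of the fibrillins, FBN1 carried almost all reads. FBN1 had 2719, 3395 and 3218 reads in the libraries labelled knockout, against 4214, 4056 and 3717 in control libraries. At 79.3 ± 0.421 CPM in the libraries labelled knockout and 97.1 ± 3.57 CPM in control libraries (SD, n = 3 each), it fell by 18.4% (log2 fold change -0.29, SE 0.04, edgeR adjusted p = 1.16e-05). This call was lost when a smooth trend of expression with exon length and GC content was removed from each library (log2 fold change -0.056, edgeR adjusted p = 0.299). That step also centres each library on its mean, and the median log2 fold change of all genes moved from 0.005 to 0.08. FBN1 thus still lay below the median gene, and the shares of trend and centring in the lost call were not tested. FBN1 exons span 16.1 kb, and among tested genes of at least 1 CPM the median log2 fold change was 0.11 in the quintile with the shortest exons and -0.08 in the quintile with the longest, over 8.29 kb. FN1, TNC, THBS1, VCAN and FBN2 also have exon lengths in the longest quintile, and the 4 of these that were tested kept their calls with the trend removed (FN1 at -1.80, TNC at -1.10, VCAN at -1.16 and THBS1 at 0.51).

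FBN2, the fibrillin of embryonic microfibrils, had 0, 2 and 0 reads in the libraries labelled knockout, against 4, 10 and 2 in control libraries. Summed, that is 2 reads and 16 reads, a ratio of 0.13 of the control group (exact 95% interval 0.0145 to 0.552, for counting error only, as reads were not counted by molecule). The highest library labelled knockout and the lowest control library both had 2 reads, and with no filter on low counts FBN2 did not pass (edgeR adjusted p = 0.0809). FBN1 lies on chromosome 15 (48408313 to 48645709) and FBN2 on chromosome 5 (128257909 to 128538245, both GRCh38.p14).

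The 2 proteoglycans also moved in opposite directions. VCAN, the large hyaluronan-binding one, had 597, 664 and 685 reads in the libraries labelled knockout, against 1931, 1619 and 1682 in control libraries. It was 2.56-fold lower, at 16.6 ± 1.07 CPM in the libraries labelled knockout and 42.4 ± 3.31 CPM in control libraries (SD, n = 3 each; log2 fold change -1.36, SE 0.07, edgeR adjusted p = 6.84e-13). LUM, a small leucine-rich proteoglycan that spaces collagen fibrils, had 232, 299 and 295 reads in the libraries labelled knockout, against 153, 176 and 180 in control libraries. It was 1.70-fold higher, at 7.01 ± 0.248 CPM in the libraries labelled knockout and 4.13 ± 0.453 CPM in control libraries (SD, n = 3 each; log2 fold change 0.76, SE 0.12, edgeR adjusted p = 2.16e-05). LUM reads per VCAN read were 0.389, 0.45 and 0.431 in the libraries labelled knockout, against 0.0792, 0.109 and 0.107 in control libraries. VCAN lies on chromosome 5 (83471744 to 83582302) and LUM on chromosome 12 (91102629 to 91111494, both GRCh38.p14). The antisense gene VCAN-AS1 overlaps VCAN and had 0 to 2 reads in each library.

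**Figure D2:**
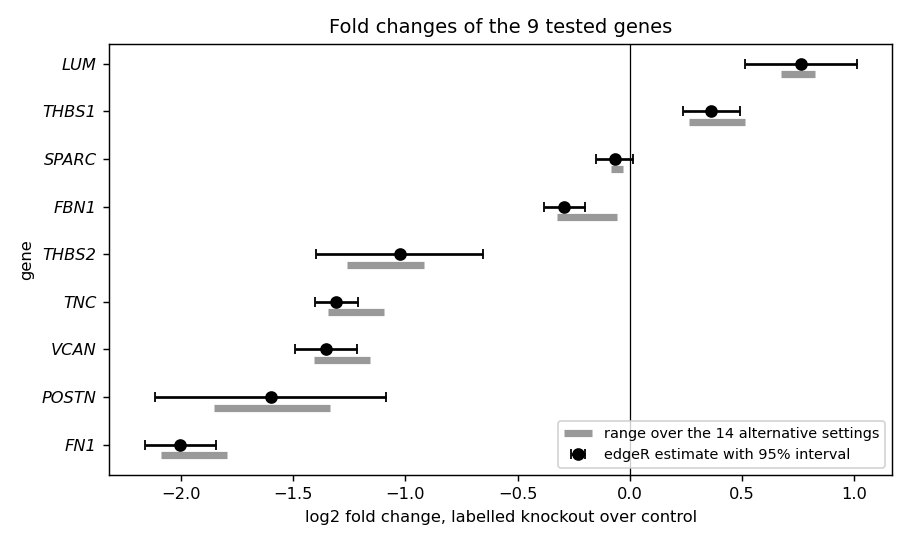
The edgeR log2 fold change, labelled knockout over control, of the 9 tested genes with its 95% interval (points and bars), above the range over 14 alternative settings (grey). FN1 lies lowest at -2.00 and LUM highest at 0.76, the SPARC interval crosses 0, and the grey range of FBN1 reaches -0.056.

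Scaled to the length of their annotated exons, so that genes can be set side by side, the order of levels differed between the groups. SPARC led in the libraries labelled knockout at 180 ± 2.85 CPM per kb, ahead of TNC at 113 ± 7.29, whereas TNC led in control libraries at 280 ± 3.57 CPM per kb, ahead of SPARC at 189 ± 3.39 (SD, n = 3 each). The same order at the top was found in both groups when the longest annotated transcript was used as the length (SPARC 235 and TNC 143 CPM per kb in the libraries labelled knockout, TNC 353 and SPARC 247 CPM per kb in control libraries). TNC reads per SPARC read were 1.18, 1.26 and 1.31 in the libraries labelled knockout, against 3.03, 2.97 and 2.86 in control libraries.

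THBS1 came next in both groups, with 18.1 ± 2.16 CPM per kb in the libraries labelled knockout and 14.1 ± 0.687 in control libraries, followed by FBN1, with 4.94 ± 0.0262 CPM per kb in the libraries labelled knockout and 6.05 ± 0.223 in control libraries (SD, n = 3 each). Next in the libraries labelled knockout were LUM at 2.33, VCAN at 1.12 and FN1 at 0.823 CPM per kb. In control libraries these 3 stood as FN1 at 3.30, VCAN at 2.86 and LUM at 1.37. The ranges of FN1 and VCAN overlapped across control libraries (2.90 to 3.69 and 2.64 to 3.09 CPM per kb), but FN1 was higher within each. With the longest transcript as the length, their control ranges did not overlap, and their order in the libraries labelled knockout turned round. THBS2 and POSTN had 0.275 and 0.147 CPM per kb in the libraries labelled knockout and 0.566 and 0.449 in control libraries, and FBN2 was last. The control ranges of THBS2 and POSTN overlapped too, with THBS2 higher within each control library. With the longest transcript as the length, POSTN was the higher of these in control libraries (0.727 against 0.624 CPM per kb).

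**Figure D3:**
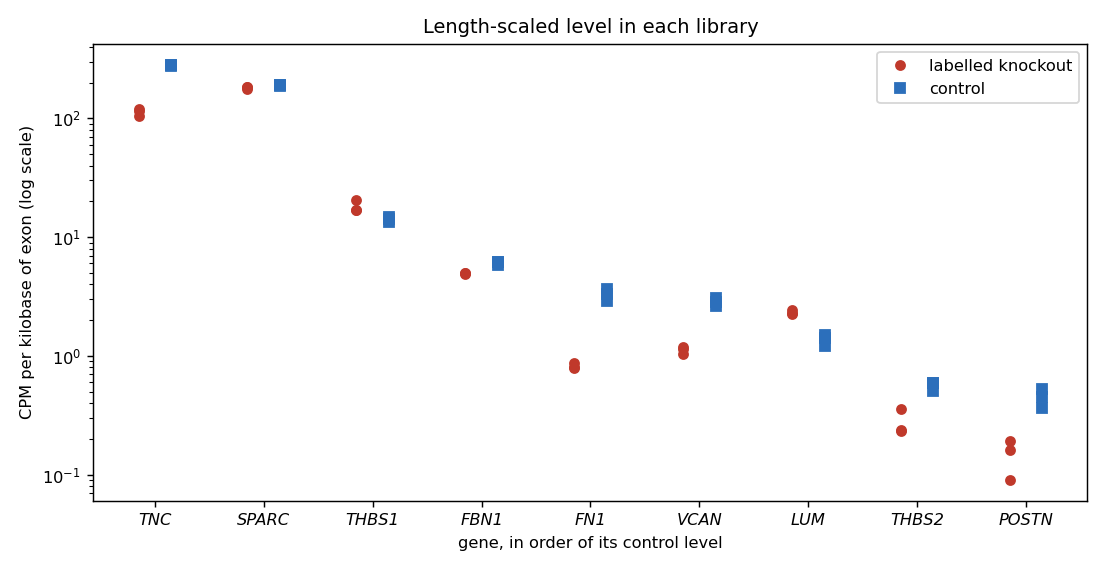
CPM per kilobase of annotated exon on a log axis, for the 9 tested genes in each of the 6 libraries, labelled knockout left of control. TNC lies above SPARC in the 3 control libraries and below it in the 3 libraries labelled knockout, and LUM lies above FN1 and VCAN only in the libraries labelled knockout.

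Among all genes in the plot of fold change against level, TNC stands apart as the member with the highest level and a fall of more than 2-fold, while POSTN, THBS2 and LUM lie among low genes, where fold changes spread widely. By the rule used here, the genes most like FN1 over the 6 libraries, out of 12552 protein-coding genes of at least 1 CPM, were WNK2, ADAMTS9 and TMEM63C. Their centred log2 CPM profiles lay 0.266, 0.267 and 0.287 from that of FN1 as Euclidean distances. With so few libraries in each group, this distance mostly picks genes with a like difference between the groups, and shows no shared role. The log2 fold changes of WNK2, ADAMTS9 and TMEM63C were -2.19, -2.08 and -2.10. ADAMTS9, a protease that cleaves versican, had 3.58 ± 0.344 CPM in the libraries labelled knockout and 15.1 ± 1.34 CPM in control libraries (SD, n = 3 each). Nearest to TNC were NCOA7, XYLT1 and IRAK2, at 0.0832, 0.107 and 0.122, with log2 fold changes of -1.32, -1.28 and -1.37. XYLT1, which starts the sugar chains of proteoglycans, had 21.1 ± 0.78 CPM in the libraries labelled knockout and 51.5 ± 1.58 CPM in control libraries (SD, n = 3 each).

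**Figure D4:**
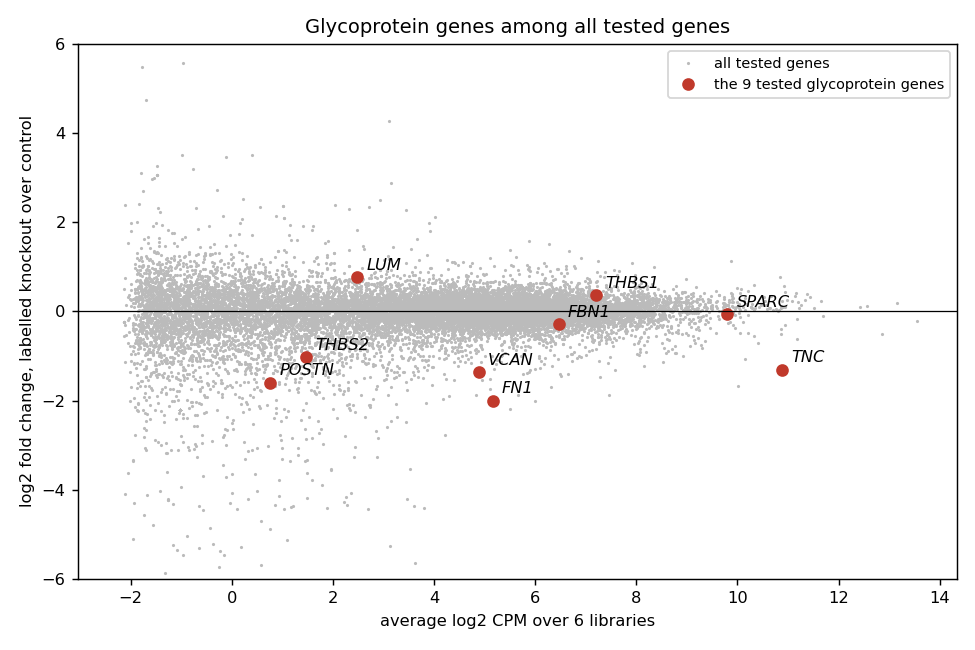
Log2 fold change, labelled knockout over control, against average log2 CPM for all 16910 tested genes (grey) and the 9 tested glycoprotein genes (red). The vertical axis reaches 6 log2 units to either side of 0, which leaves out 47 genes, and TNC lies at the high end of expression with a log2 fold change of -1.31.

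The gene lists from here on were drawn up with earlier results of these data known, so their counts are descriptive only. Matrix genes related to the 10 by family or assembly were lower more often than higher. Of 38 tested among 54 listed, 20 fell, 6 rose and 12 did not pass, beside 23.4% lower and 22% higher among all tested genes, with a median log2 fold change of -0.30. TGFBI, the paralog of periostin, fell to 96.8 ± 7.82 CPM in the libraries labelled knockout, against 210 ± 4.27 CPM in control libraries (SD, n = 3 each; log2 fold change -1.12, edgeR adjusted p = 1.78e-13). HAPLN1, which links versican to hyaluronan, fell to 325 ± 38.3 CPM in the libraries labelled knockout, against 651 ± 16 CPM in control libraries (SD, n = 3 each; edgeR adjusted p = 1.24e-11). SPP1 (osteopontin, an integrin ligand) rose to 167 ± 1.55 CPM in the libraries labelled knockout, against 73 ± 2.96 CPM in control libraries (SD, n = 3 each; edgeR adjusted p = 6.32e-15). EMILIN2, an elastin-associated glycoprotein, had a log2 fold change of 1.03 (edgeR adjusted p = 2.54e-11). With the length and GC trend removed, 14 fell and 11 rose, where 16.3% of all genes tested were lower and 32.4% higher.

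Genes of the receptors that hold these proteins were mostly lower as well. Of 21 tested among 23 listed, 17 fell, 2 rose and 2 did not pass, beside 23.4% lower and 22% higher among all tested genes, with a median log2 fold change of -0.46. SDC2, a heparan sulfate proteoglycan of the cell surface, fell to 34.1 ± 1.03 CPM in the libraries labelled knockout, against 85 ± 3.76 CPM in control libraries (SD, n = 3 each; log2 fold change -1.32, edgeR adjusted p = 1.20e-14). The integrin chain ITGA9, part of a tenascin C receptor, fell with a log2 fold change of -1.11 (edgeR adjusted p = 7.87e-14). ITGA8, another integrin chain, fell to 0.4 ± 0.124 CPM in the libraries labelled knockout, against 5.44 ± 0.747 CPM in control libraries (SD, n = 3 each; log2 fold change -3.78, edgeR adjusted p = 7.36e-12). The syndecan SDC1 rose to 65.3 ± 7.3 CPM in the libraries labelled knockout, against 25 ± 0.785 CPM in control libraries (SD, n = 3 each; log2 fold change 1.38, edgeR adjusted p = 5.08e-13). CALR, the most read of the list and a partner of thrombospondin 1 at the cell surface, rose with a log2 fold change of 0.22 (edgeR adjusted p = 2.55e-04).

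Of 34 tested genes for assembly and turnover among 36 listed, 18 fell, 4 rose and 12 did not pass, beside the same 23.4% lower and 22% higher over all tested genes, with a median log2 fold change of -0.35. ADAMTS1, a protease that cleaves versican, fell to 15.7 ± 1.48 CPM in the libraries labelled knockout, against 52.5 ± 0.932 CPM in control libraries (SD, n = 3 each; log2 fold change -1.75, edgeR adjusted p = 5.53e-15). ADAMTS9 fell too, with a log2 fold change of -2.08 (edgeR adjusted p = 1.20e-12). XYLT1 had a log2 fold change of -1.28 (edgeR adjusted p = 7.21e-14), and CEMIP, which acts in hyaluronan breakdown, one of -0.91 (edgeR adjusted p = 1.78e-13). LOXL4, the most read of the list and a lysyl oxidase-like crosslinking enzyme, had a log2 fold change of -0.76 (edgeR adjusted p = 8.25e-10).

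Of 24 tested regulators, 12 fell, 2 rose and 10 did not pass, where 23.4% of all tested genes were lower and 22% higher, with a median log2 fold change of -0.17. PRRX1, a mesenchymal homeobox factor, fell to 171 ± 9.1 CPM in the libraries labelled knockout, against 398 ± 18.1 CPM in control libraries (SD, n = 3 each; log2 fold change -1.22, edgeR adjusted p = 1.53e-14). SMAD3, which relays TGF-beta signals, had a log2 fold change of -0.54 (edgeR adjusted p = 8.15e-10). For SNAI2, a repressor of epithelial genes, it was -2.17 (edgeR adjusted p = 1.70e-07), and for the YAP paralog WWTR1, the most read of the list, -0.31 (edgeR adjusted p = 1.74e-06). The 2 that rose were FOSL1 (0.27) and SMAD7 (0.29). The call of SMAD7 was lost without replicate 1 of the libraries labelled knockout (edgeR adjusted p = 0.0705). With the length and GC trend removed, 10 regulators fell and 5 rose, where 16.3% of all genes tested were lower and 32.4% higher. Receptors then had 17 lower and 3 higher, and the genes for assembly and turnover 16 lower and 5 higher.

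**Figure D5:**
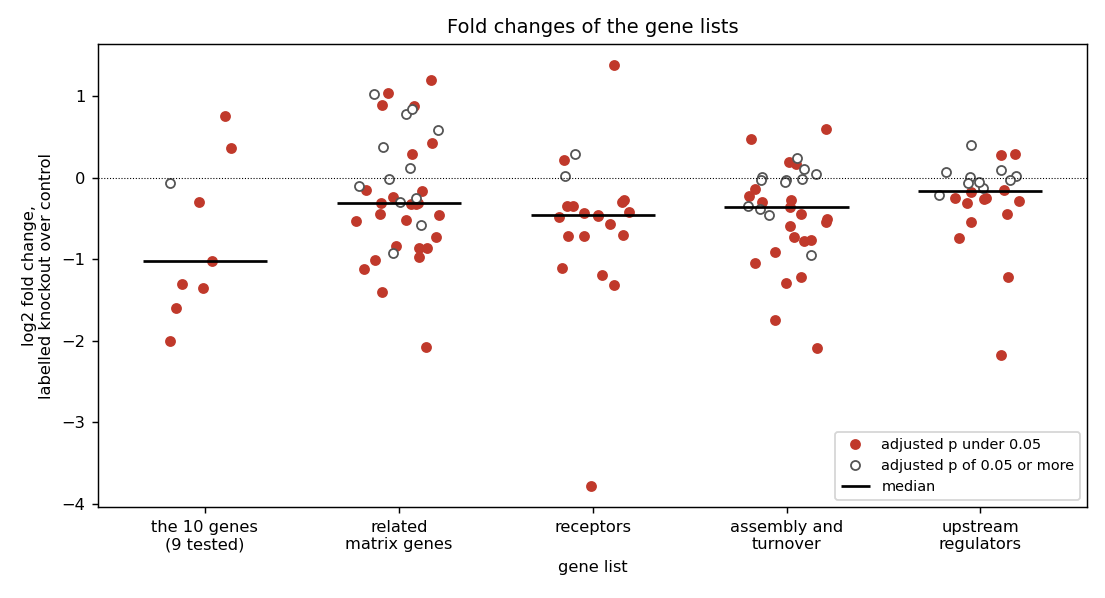
Log2 fold change, labelled knockout over control, of the tested genes in each list (filled where the edgeR adjusted p was under 0.05, open otherwise) with the median as a line. The medians are -1.03, -0.30, -0.46, -0.35 and -0.17 in the order plotted, and ITGA8 lies lowest at -3.78.

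Since fibroblasts make many of these proteins, markers of other cells were read beside them. Of the 9 fibroblast markers, the counts held 6 and lacked DPT, THY1 and PDPN. The summed level of the 6 was 41.8 to 47.8 CPM in the libraries labelled knockout and 70.2 to 71.1 CPM in control libraries. PDGFRB made up most of it, at 28.9 CPM in the libraries labelled knockout and 52.5 CPM in control libraries. COL1A1 had 3.76 CPM in the libraries labelled knockout and 5.74 CPM in control libraries. COL1A2, COL3A1 and DCN were below 1 CPM in every library. Of the 6, 3 fell (PDGFRB, COL1A1 and COL1A2) and none rose. DCN, PDGFRA and COL3A1 did not pass (log2 fold changes 0.85, -0.08 and -0.01). The part of this list in the results above was not tested. Summed endothelial markers had 8.08 to 9.15 CPM in the libraries labelled knockout and 9.69 to 10.2 CPM in control libraries, with TEK lower. Immune markers had 7.27 to 7.62 CPM in the libraries labelled knockout and 4.04 to 4.91 CPM in control libraries, mostly LYZ, which rose, with PTPRC and CD68 near 0. Epithelial markers had 41.9 to 49.2 CPM in the libraries labelled knockout and 39.4 to 43.2 CPM in control libraries, mostly CLDN4, which rose. Leaving out 1 library lost the call of SOX10 in 3 of 6 refits (without control replicate 1 or 2 or labelled knockout replicate 3), of TEK in 5 (all but control replicate 1) and of CLDN4 in 3 (without labelled knockout replicate 2 or control replicate 1 or 3), with edgeR adjusted p of up to 0.0661, 0.166 and 0.129. The part of these lists was likewise not tested.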

How the data were processed

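The deposited values are raw counts of reads per gene for 6 libraries, not normalized by the authors. The submitters' processing notes name build GRCh38 and the tools featureCounts 2.0.6, HISAT2 2.2.1, SAMtools 1.21 and FastQC 0.12.1. Annotation and strand setting were not given in the sources used here, so overlapping and antisense genes are uncertain. No 2 members, and no member and other gene, shared identical counts.

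Groups and replicate numbers came from the sample titles. The table was fitted in R 4.3.3 with edgeR 4.0.16 (TMM factors, default expression filter, two-sided quasi-likelihood test, no covariate). The filter kept 16910 genes and left out 4721. Tested on simulated counts, the procedure found large changes, missed many small ones and made somewhat more false calls than its threshold allows for. Values after ± are SDs of 3 libraries. Exon and transcript lengths came from GENCODE 29, and positions and promoters from RefSeq, GRCh38.p14.

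The members and lists were chosen with earlier results of these data known. Named were the 10 members, SEPHS2, up to 4 called genes of each list by smallest adjusted p and the most abundant one, and the 3 genes nearest to FN1 and to TNC by log2(CPM + 0.1). FOSL1, SMAD7 and the marker genes were named after their values were seen. The fit was repeated with RLE or upper-quartile factors, without the filter, with at least 1 CPM in 3 libraries, DESeq2 1.42.0, with voom in limma 3.58.1, with the replicate number as a block, an adjusted p under 0.01, removal of a length and GC trend (known for 95.3% of tested genes), and leaving out each library.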

Additional observations from a re-analysis of the deposited data

How the results depend on the processing

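The values compared here were the fold changes of the members and the counts of calls. Across the alternatives, 287 of these recomputed values kept their direction and side of the threshold, or for counts stayed within 1.5 times. The exceptions follow. With the length and GC trend removed, the log2 fold change of FBN1 was -0.056 (edgeR adjusted p = 0.299), 11 related matrix genes and 5 regulators rose, and 33.5% of all calls were lower, against 51.5% in the fit without that step. This step also centres each library on its mean, and moved the median of all genes to 0.08. The number of regulators that rose was 1 to 3 with 1 library left out, against 2 with all, and the 1 came without replicate 1 of the libraries labelled knockout. Single genes of the lists, which are not among these values, changed as well. LTBP3, a related matrix gene, was called lower in the main fit (log2 fold change -0.31, edgeR adjusted p = 1.30e-06). With the length and GC trend removed it was called higher (0.10, edgeR adjusted p = 0.0359). EFEMP1, called higher, and THBS3, called lower, lost their calls in 10 and 8 of 14 settings. The causes were not tested.

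With the replicate number as a block, 7774 genes were called, against 7673, and 6 members were lower and 2 higher, as before. Same-numbered libraries did not deviate together (correlations of 0.01, -0.09 and -0.25 across genes for numbers 1, 2 and 3). Differently numbered libraries had correlations of -0.251 to 0.296. This gives no sign that the number pairs libraries, but so few libraries cannot settle whether any were paired. Depth limits THBS2, POSTN and FBN2, which had 211, 95 and 2 reads over the libraries labelled knockout and 447, 302 and 16 over the control libraries.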
